A study of Mus musculus with 3 samples.

Results

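The proteasome genes were examined in blastocysts of NOD and B6 mice. They were taken as all genes of the blastocyst count table whose symbol begins with Psm, a letter from a to g and a digit, without numbered pseudogenes, of which no row had to be dropped. The rule found 50 of the 24063 genes in the table, and all 50 had enough counts to be tested. Of these, 5 encode parts that mark the immunoproteasome (Psmb8, Psmb9, Psmb10) or its PA28 cap (Psme1, Psme2), and they were set against the other 45. One of the 45, Psmc3ip, carries the name but encodes a partner of the recombinases of meiosis and is no part of the proteasome.

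RNA was measured by SMART-Seq V4, a low-input method in which cDNA is made over the whole length of a transcript and multiplied by PCR before sequencing. One library came from B6, the C57BL/6 strain, which does not develop autoimmune diabetes, and 2 libraries, NOD 1 and NOD 2, came from NOD, the non-obese diabetic strain, which does. All 3 were untreated. The labels give an intact blastocyst as the input of each library, whereas the methods of the study give a single inner cell mass (ICM) after immunosurgery, and the age of the embryos in days is not given in the sources used here. The study asked whether immune-related genes are already expressed differently in embryos of the diabetes-prone strain. The spread between samples is known for NOD only, since B6 has 1 library. No label says whether NOD 1 and NOD 2 came from separate matings, so that p values measure the spread between these samples.

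The libraries held 12505685, 33891715 and 36171013 counts across B6, NOD 1 and NOD 2. Levels are given as CPM, counts scaled to a common library size after correction by the trimmed mean of M values (TMM), so that a single count was worth 0.0734 CPM in B6 against 0.0303 and 0.0294 in NOD 1 and NOD 2. B6 is the shallowest library, and depth and strain cannot be told apart. Of the markers chosen for the cell types of a blastocyst, the 9 ICM and epiblast markers summed to 1085, 938 and 1163 CPM across B6, NOD 1 and NOD 2. Tfcp2l1 took the most of this sum in B6 (636, 352 and 308 CPM), and members went both ways, with Tdgf1 (1.47, 30.4 and 48.6 CPM) and Zfp42 (61.7, 155 and 221 CPM) called higher in NOD and Sox2 (49.8, 5.75 and 9.61 CPM) called lower. The 8 trophectoderm markers, Cdx2, Gata3 and the keratins among them, summed to 2949, 1705 and 1581 CPM, so that trophectoderm transcripts were present in all 3 libraries with a lower sum in both NOD libraries. Krt18 took the most of this sum (1464, 812 and 852.5 CPM). None of the 7 trophectoderm markers tested was called, 6 had both NOD libraries below B6, and Krt7 had both above (47.2, 55.25 and 54.0 CPM). The 6 primitive endoderm markers summed to 392, 119 and 158 CPM, most of it Gata6 (385, 91.5 and 129.9 CPM, called lower in NOD). Pdgfra (5.505, 23.6 and 24.6 CPM) was called higher, Gata4 had 0.514, 3.03 and 3.53 CPM with no call, Foxa2 was at 0 in every library and Sox17 was at 0 in B6 and NOD 1. The 9 leukocyte markers summed to 0.367, 0.363 and 1.5 CPM, and Ptprc, Lyz2, Fcer1g and Cd79a were at 0 in every library. In such bulk libraries, fewer cells of a type and less RNA per cell cannot be told apart. The part of these marker differences in the results below was not tested.

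The 26S proteasome degrades proteins that carry ubiquitin chains. Its 20S core is a barrel of alpha and beta rings, in which 3 beta subunits, encoded by Psmb5, Psmb6 and Psmb7, cut the peptide chain. The 19S cap recognises, unfolds and feeds the substrate. Interferon-gamma is known to replace the 3 cutting subunits with Psmb8, Psmb9 and Psmb10 in new particles and to raise the PA28 cap of Psme1 and Psme2, which shifts the peptides made towards those that MHC class I molecules present. Immunoproteasomes are best known from leukocytes.

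The regions upstream of the transcription start are shown for Psmb9 and Psmb8, which lie in the MHC on chromosome 17 with Tap1 between them, and for Psmb6 and Psmb5, the constitutive subunits they replace. They were taken from RefSeq for GRCm38.p6 (mm10), run 5′ to 3′ on the strand of the gene, and end at the last base before the start site. Capitals mark matches to 4 motifs searched on both strands. The first is the interferon-stimulated response element (GAAANNGAA), the site of interferon regulatory factors. The second is the gamma-activated site (TTCNNNGAA), found at genes that respond to interferon-gamma. The third is the antioxidant response element (TGACNNNGC), which the proteasome gene activators Nfe2l1 and Nfe2l2 bind. The last is the CCAAT box. No matches overlap in the stretches shown. Psmb9 (minus strand, chr17:34187331-34187555) is shown over the whole 225 bases that separate it from Tap1, a peptide transporter gene that is read in the other direction from the same stretch. Psmb8 (plus strand) is shown at chr17:34197945-34198194, Psmb6 (plus strand) at chr11:70525107-70525356 and Psmb5 (minus strand) at chr14:54617996-54618245.
Psmb9: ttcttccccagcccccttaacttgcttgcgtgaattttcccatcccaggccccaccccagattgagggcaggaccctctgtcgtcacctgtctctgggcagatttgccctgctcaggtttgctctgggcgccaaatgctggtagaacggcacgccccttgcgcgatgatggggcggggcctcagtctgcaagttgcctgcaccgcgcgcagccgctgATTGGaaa
Psmb8: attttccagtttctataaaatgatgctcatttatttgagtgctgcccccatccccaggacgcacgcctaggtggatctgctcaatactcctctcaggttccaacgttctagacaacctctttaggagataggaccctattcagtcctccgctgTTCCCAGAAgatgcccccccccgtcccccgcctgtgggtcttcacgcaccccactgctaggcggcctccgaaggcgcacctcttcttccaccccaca
Psmb6: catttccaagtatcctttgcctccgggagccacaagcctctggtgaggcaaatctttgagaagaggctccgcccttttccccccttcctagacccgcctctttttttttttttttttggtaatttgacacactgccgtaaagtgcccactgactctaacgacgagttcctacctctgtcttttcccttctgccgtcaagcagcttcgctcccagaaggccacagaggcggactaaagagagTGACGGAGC
Psmb5: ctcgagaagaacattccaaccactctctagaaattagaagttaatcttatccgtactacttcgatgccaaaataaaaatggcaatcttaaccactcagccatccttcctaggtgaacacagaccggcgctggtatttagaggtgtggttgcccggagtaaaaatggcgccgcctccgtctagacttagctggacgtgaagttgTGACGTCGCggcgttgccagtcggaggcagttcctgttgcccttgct
A gamma-activated site lay 97 bases before the start of Psmb8, and a CCAAT box lay 8 bases before the start of Psmb9, where it reads ATTGG. Antioxidant response elements lay 47 bases before the start of Psmb5 and 9 bases before that of Psmb6. Over the 300 bases given around each start, 250 before it and 50 after, 42 of the 50 genes had a window in the table. The interferon-stimulated element occurred in 1 of the 5 genes (Psme1, 11 bases after its start) and in 6 of 37 others, against 9.76% of 27025 genes. The gamma-activated site occurred in 1 of the 5 and 2 of 37, against 9.55%, and the antioxidant element in 0 of the 5 and 6 of 37, against 14%. The CCAAT box occurred in 1 of the 5 and 14 of 37, against 41.1%. A match describes these letters only, and binding was not measured here.

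Of the 50 proteasome genes, 12 were called higher in NOD than in B6, 0 were called lower and 38 were not called. A call required an adjusted p under 0.05 in edgeR's quasi-likelihood test over 14456 genes and at least a 2-fold change. The share called higher was 24.0%, against 10.3% of all genes tested, and the share called lower was 0 of 50, against 7.39% of all (17.7% of all genes were called in either direction). No member was called lower by any of the other settings or tools. An unadjusted p under 0.05 in edgeR was reached by 24 of the 50 members, of which 22 were higher in NOD. It was also reached by 5763 of the 14456 genes tested. Over all genes, 1483 were called higher and 1069 lower. Under scaling by total counts alone these were 1037 and 1132, and 7 members were called higher. With upper-quartile factors they were 1016 and 701, and 5 members were called higher. Both NOD libraries lay above B6 for 39 of the 50 genes, against 45.3% of all genes, and below B6 for 7, against 39.4%. The median log2 fold change (NOD minus B6) of the 50 was 0.695, against 0.262 for all genes tested. The difference between these medians was 0.433 and ranged from 0.349 to 0.572 over the other settings. Since 3 libraries allow no exact permutation p below 0.333, the calls rest on the spread that edgeR borrows across genes. The members called were 0 in a fit without a filter on low counts and 0 with limma-voom. In these fits 23 and 22 members had an unadjusted p under 0.05, beside 5568 and 3924 of all genes.

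**Figure D1:**
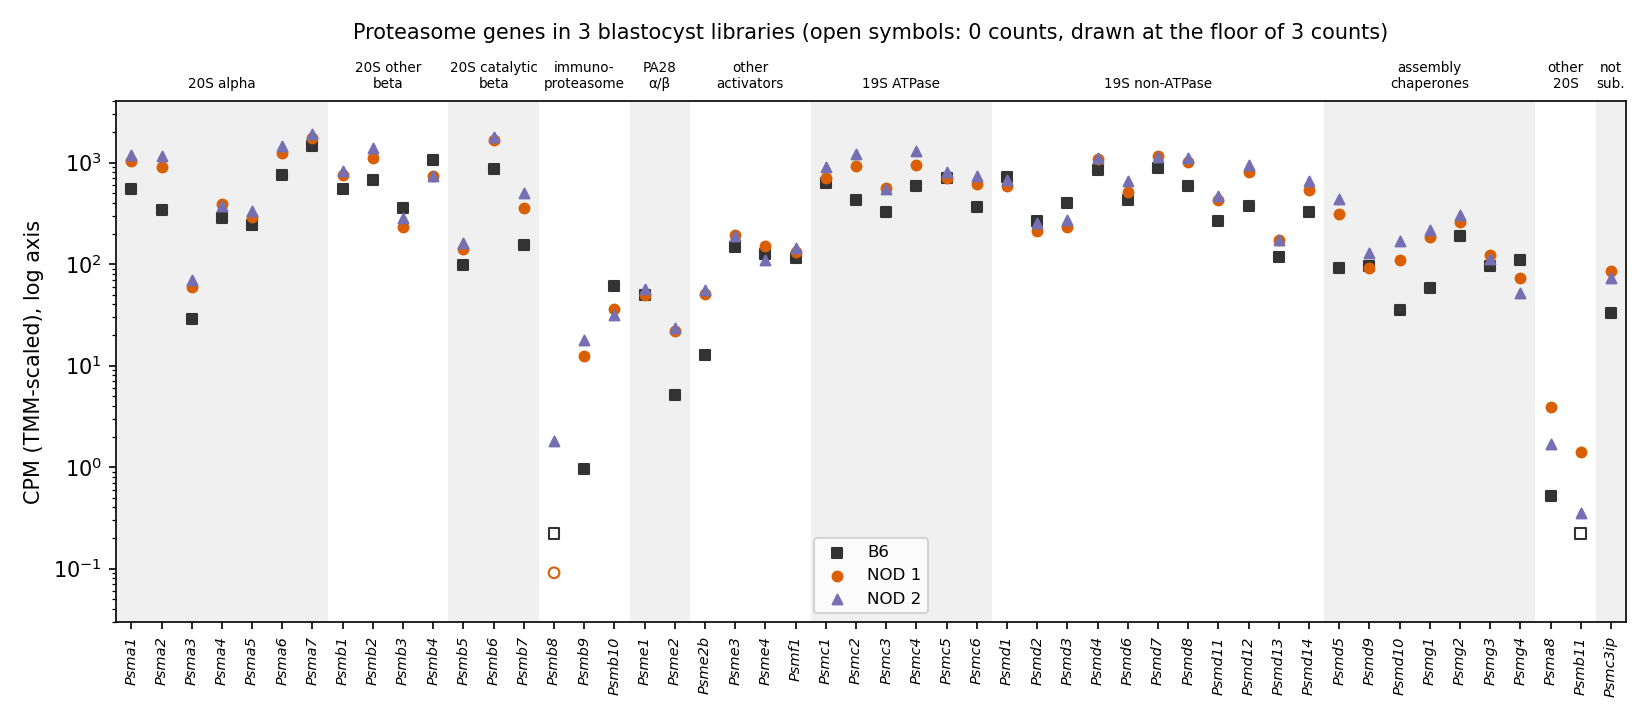
Level of each of the 50 proteasome genes in CPM (TMM-scaled, log axis) in B6 (squares), NOD 1 (circles) and NOD 2 (triangles), grouped by role, with counts of 0 drawn as open symbols at the floor of 3 counts. Genes of the 20S core and 19S cap lie in the upper part of the plot, with both NOD symbols above the B6 symbol in 39 of 50 genes, whereas Psmb8, Psmb9, Psma8 and Psmb11 lie far lower.

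The 7 genes of the 20S alpha ring, which forms the gate of the barrel, all had both NOD libraries above B6 (45.3% of all genes tested), and 2 of the 7 were called higher (10.3% of all). Psma2 had 341, 915 and 1162 CPM across B6, NOD 1 and NOD 2, which gave a fitted log2 fold change of 1.61, with a standard error (after ± here and below) of 0.25, and an adjusted p of 0.0275, and it was called in 5 of 7 other fits. Psma1 had 555, 1043 and 1194 CPM, a change of 1.01 ± 0.21 with an adjusted p of 0.0413. Its fold is close to the limit of 2, and it was called in 1 of 7 other fits. The ring as a whole had a median log2 fold change of 0.836, from 0.32 in Psma7 (1458, 1730 and 1919 CPM, adjusted p 0.244) to Psma2. Psma3 had the lowest level per kilobase of the 14 constitutive 20S genes in every library, 20.6, 42.1 and 49.4 CPM per kilobase, while the median of the 14 was 471, 764 and 797.

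Among the constitutive beta subunits, 2 of the 3 that cut peptides were called higher, beside 10.3% of all genes, and the 4 others were not called. Psmb6, which cuts after acidic residues, had 866, 1686 and 1802.5 CPM across B6, NOD 1 and NOD 2, with a fold change of 1.01 ± 0.19 on the log2 scale (adjusted p 0.0345). It too lies close to the limit of 2-fold and was called in 1 of 7 other fits. Psmb7, which cuts after basic residues, had 154, 354 and 498 CPM, a change of 1.47 ± 0.31 (adjusted p 0.0424), and was called in 3 of 7 other fits. Of the 50-base words of the Psmb7 transcript, 28.1% also occur in another gene, most in Nek6 on the opposite strand, and the counting joined both strands. Psmb5, which cuts after hydrophobic residues, had 98.1, 142 and 161 CPM, a change of 0.63 ± 0.27 with an adjusted p of 0.161, and 57.1% of its 50-base words occur in another gene. Both NOD libraries were higher than B6 for all 3 genes. The other beta subunits went both ways. Psmb2 had 679.7, 1114 and 1382 CPM (log2 fold change 0.88 ± 0.23, adjusted p 0.0610), and Psmb4 had 1055, 742.5 and 734 CPM (−0.51 ± 0.19, adjusted p 0.112), so that Psmb4 was the 20S gene with the highest level per kilobase in B6 and Psmb6 in both NOD libraries.

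The 3 immunoproteasome subunits did not share a pattern. In the mm10 coordinates of the count table, Psmb9 lies at chr17:34182099-34187330 (minus strand), Psmb8 at chr17:34198195-34201454 (plus strand) and Psmb10 at chr8:105935728-105938392 (minus strand), and counts were summed over their exons, UTRs included. Psmb9, the counterpart of Psmb6, had 13, 411 and 605 counts across B6, NOD 1 and NOD 2, which are 0.954, 12.4 and 17.8 CPM. Both NOD libraries were well above B6, and the fitted difference of 3.98 ± 0.73 on the log2 scale (adjusted p 0.0343) was the highest fitted change among the 48 members that had counts in B6. The ratio of the pooled NOD counts to the B6 count, per effective library, was 15.9 (exact 95% counting interval 9.24 to 29.9). The call was kept in 4 of 7 other fits, and its adjusted p ranged from 0.000196 (DESeq2) to 0.232 (limma-voom). Of its 50-base words, 12.5% occur in another gene, most of them in Tap1.

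Psmb8, the counterpart of Psmb5, had 0, 0 and 61 counts across B6, NOD 1 and NOD 2, and the 61 counts equal 1.79 CPM. The groups therefore overlapped, and the gene was not called (adjusted p 0.313). A count of 0 allows a level of up to 0.220 CPM in B6 and 0.0908 CPM in NOD 1. The mean of the NOD libraries was at least 4.07-fold higher than the B6 floor, and this bound rests on NOD 2 alone. Of the exon bases of Psmb8, 16.97% are also annotated to Gm20496 on the opposite strand, whose reads cannot be told apart from its own there. Psmb10, the counterpart of Psmb7, ran the other way. It had 61.1, 36.5 and 31.6 CPM across B6, NOD 1 and NOD 2, with both NOD libraries below B6, a log2 fold change of −0.84 ± 0.35 and an adjusted p of 0.145. It was not called by any of 7 other fits.

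The PA28 cap is a ring of Psme1 and Psme2 subunits that opens the 20S gate without ubiquitin. Psme1 (chr14:55578494-55581527, plus strand) had 49.9, 50.0 and 56.8 CPM across B6, NOD 1 and NOD 2, a change of 0.10 ± 0.35 (adjusted p 0.844) that turned to −0.09 under scaling by total counts alone. Psme2 (chr14:55587440-55591021, minus strand) had 70, 732 and 794 counts across B6, NOD 1 and NOD 2, which are 5.14, 22.1 and 23.3 CPM. Its log2 fold change was 2.15 ± 0.50 with an adjusted p of 0.0498, at the edge of the threshold, and it was called in 2 of 7 other fits. Psme2b, a near copy of Psme2 on chromosome 11, followed it with 12.8, 51.2 and 55.8 CPM, a change of 2.06 ± 0.40 (adjusted p 0.0370), and was called in 5 of 7 other fits. Of the 50-base words of Psme2, 59.3% occur in another gene, most of them in Psme2b, and 69.3% of those of Psme2b occur elsewhere, most in Psme2. How the reads of the pair were divided is therefore uncertain, and they are not independent observations.

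**Figure D2:**
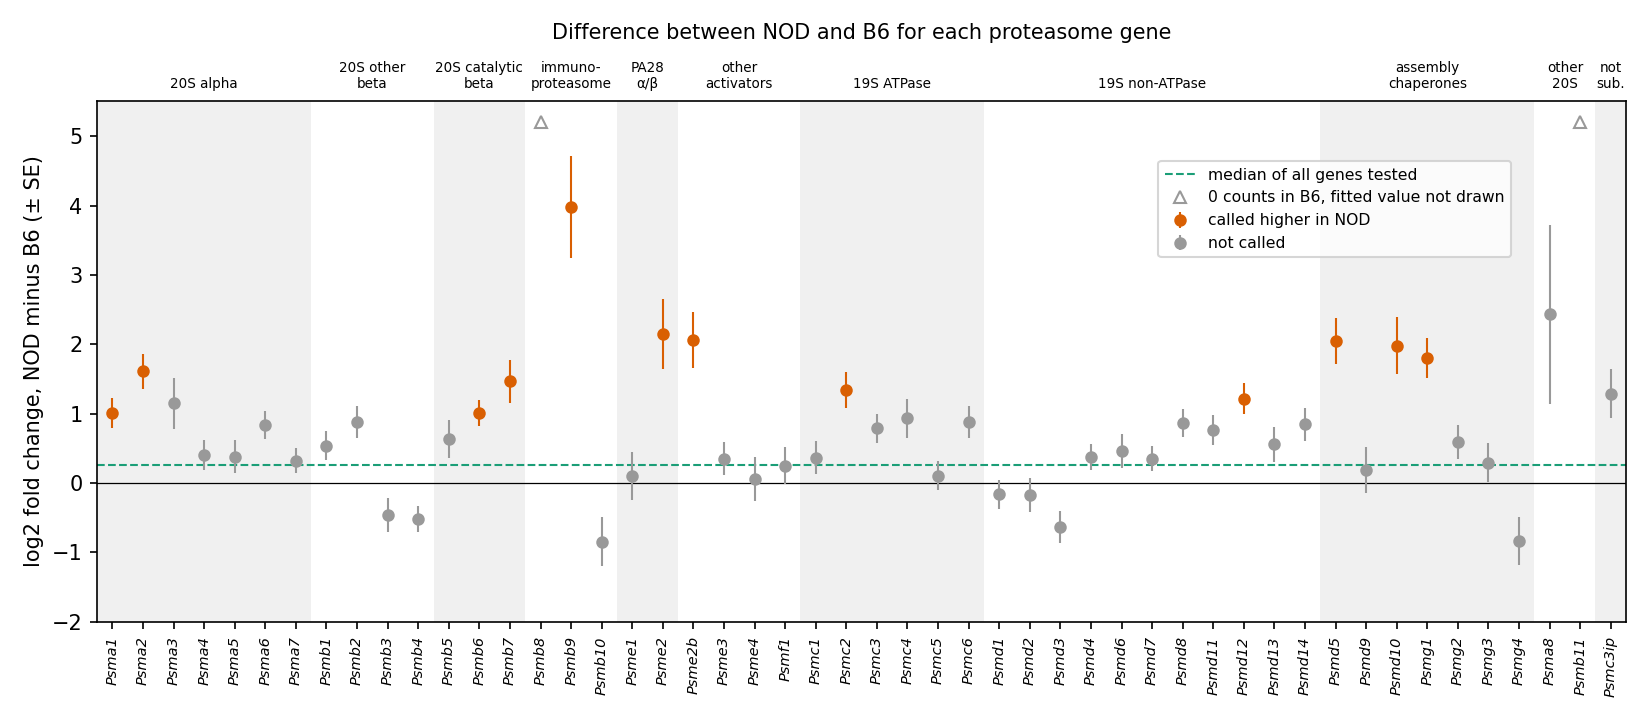
Log2 fold change (NOD minus B6, with its standard error) of each proteasome gene from the edgeR fit, with the 12 genes called higher in NOD coloured, the median of all genes tested as a dashed line at 0.262, and 2 genes at 0 counts in B6 (Psmb8, Psmb11) marked at the top without a value. Called genes appear in most groups, Psmb9 stands highest at 3.98, and Psmb10, Psmg4, Psmd3, Psmb4, Psmb3, Psmd2 and Psmd1 have values below 0 with no call.

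Set against their constitutive counterparts within each library, which removes depth and scaling, the immunoproteasome genes were below their counterparts in every library. Per kilobase, Psmb9 reached 0.142% of Psmb6 in B6 (95% counting interval from 0.0756 to 0.243), 0.950% in NOD 1 and 1.27% in NOD 2. Psmb8 was at 0% of Psmb5 in B6, with an upper limit of 0.197%, at 0% in NOD 1, with an upper limit of 0.0559%, and at 0.795% in NOD 2. The B6 limit for Psmb8 lies below the NOD 2 value, and so does that of NOD 1, so that NOD 1 and NOD 2 are also apart beyond counting error. Psmb10 was far nearer to its counterpart, at 30.2% of Psmb7 in B6 but 7.84% in NOD 1 and 4.84% in NOD 2, a difference to which the Psmb7 and the Psmb10 values both contribute. Psme1 stood at 11% of the median constitutive 20S gene in B6, 6.80% in NOD 1 and 7.40% in NOD 2, and Psme2 at 1.23%, 3.28% and 3.31%. These percentages depend on the length used. With the number of unique 50-base words in its place, Psme2 was at 2.95%, 9.85% and 9.81%, and Psmb9 at 0.0705%, 0.472% and 0.631%. For Psmb9 and Psme2 the ratio in both NOD libraries lay above that in B6, and for Psmb10 and Psme1 it lay below. Psme1 itself was not lower in NOD, at 49.9, 50.0 and 56.8 CPM across B6, NOD 1 and NOD 2. The 20S median it is divided by was 471, 764 and 797 CPM per kilobase. With 1 B6 library these ratios have no test between strains. Their intervals cover counting error only, since PCR copies were not marked by molecular identifiers.

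**Figure D3:**
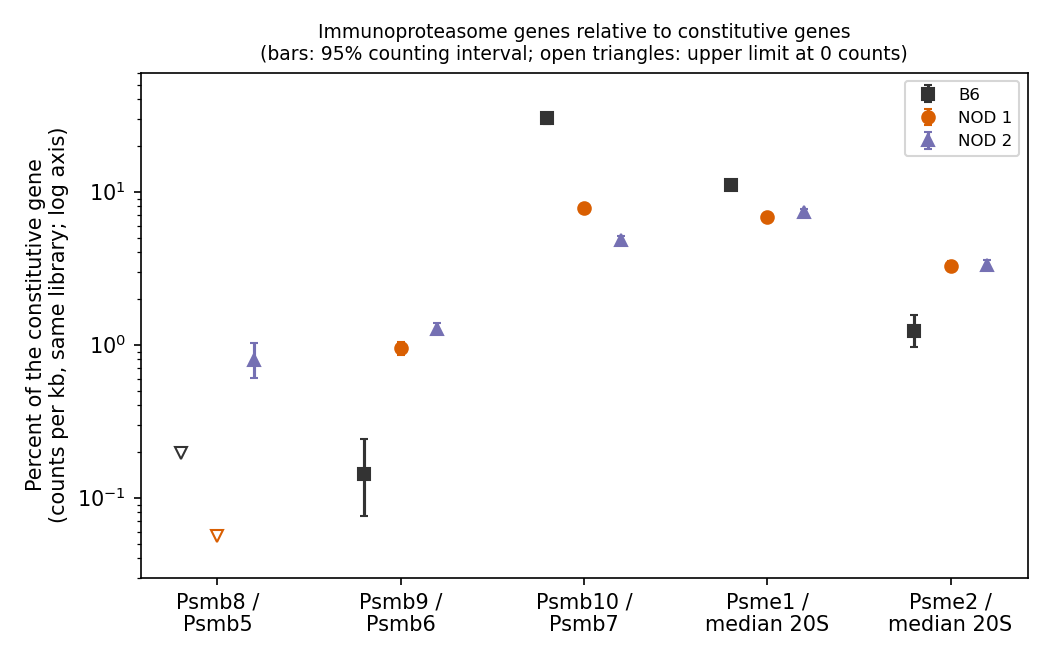
Level of each of the 5 genes as a percent of its constitutive counterpart (or of the median of the 14 constitutive 20S genes) in the same library, per kilobase, on a log axis, with bars for the 95% counting interval and open triangles for the upper limit where the count was 0. Psmb9 goes from 0.142% in B6 to 0.950% and 1.27% in NOD, while Psmb10 goes from 30.2% to 7.84% and 4.84%.

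As a group, the 5 genes had a median log2 fold change of 2.15, or 2.03 with Psmb8 set at its bound, against 0.627 for the other 45 and 0.262 for all genes tested, and 2 of 5 and 10 of 45 were called higher, beside 10.3% of all genes. This median is not stable, because without NOD 2 it was 0.004, Psmb8 then being at 0 in both strains. It also hides the spread of the 5, which ran from −0.84 in Psmb10 to 3.98 in Psmb9 among the 4 that had counts in B6. Summed over the 5 genes, the level was 117, 121 and 131 CPM across B6, NOD 1 and NOD 2, whereas the 31 constitutive 20S and 19S genes summed to 15670.5, 21907.5 and 25171 CPM, which is 1.40 and 1.61 times the B6 sum.

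**Figure D4:**
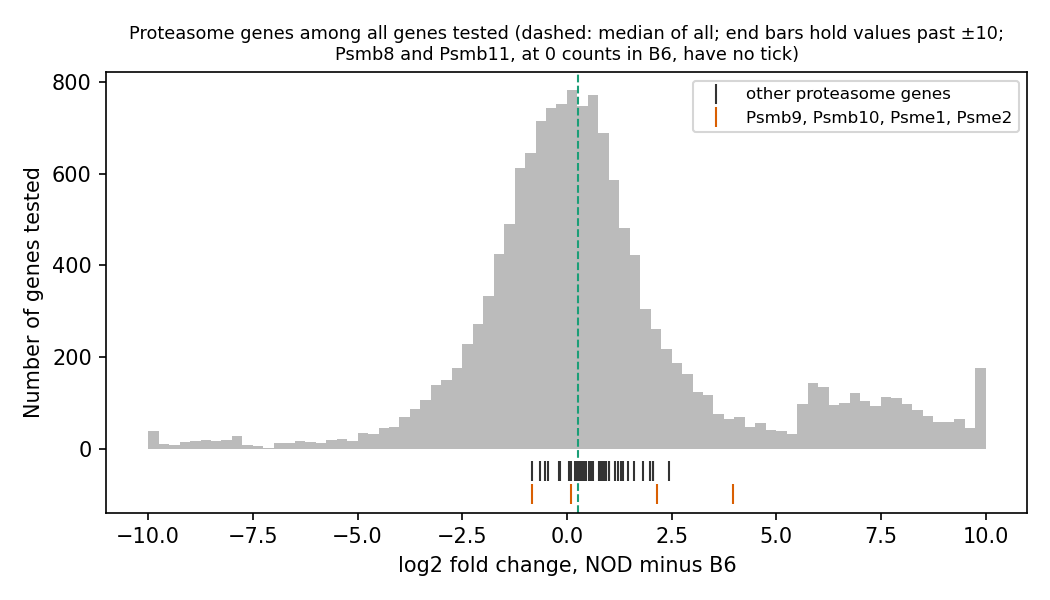
Log2 fold changes (NOD minus B6) of all 14456 genes tested as a histogram, with a tick below for each proteasome gene except Psmb8 and Psmb11, which had 0 counts in B6. The ticks of the other proteasome genes gather to the right of the dashed median of 0.262, and those of Psmb9, Psmb10, Psme1 and Psme2 are spread from −0.84 to 3.98.

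The genes around Psmb9 and Psmb8 were read beside them, since the 2 subunits and the 2 chains of the TAP peptide transporter lie within one short stretch of the MHC. The start sites of Psmb9 and Tap1 are 226 bases apart and face away from each other, Psmb8 begins 969 bases beyond the end of Tap1, and Tap2 lies 3024 bases beyond Psmb8. Although Tap1 starts from the stretch printed above for Psmb9, its level was 16.4, 11.2 and 2.62 CPM across B6, NOD 1 and NOD 2, with no call (adjusted p 0.352). Tap2 had 4, 51 and 97 counts across B6, NOD 1 and NOD 2 and was not called either (adjusted p 0.197). The pooled ratio of Tap2 was 7.52, with a counting interval from 2.87 to 27.9. Of the 4 neighbours, Psmb9 was thus the one called. Psme1 and Psme2, whose spans are 5912 bases apart on chromosome 14, had fitted changes of 0.10 and 2.15.

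**Figure D5:**
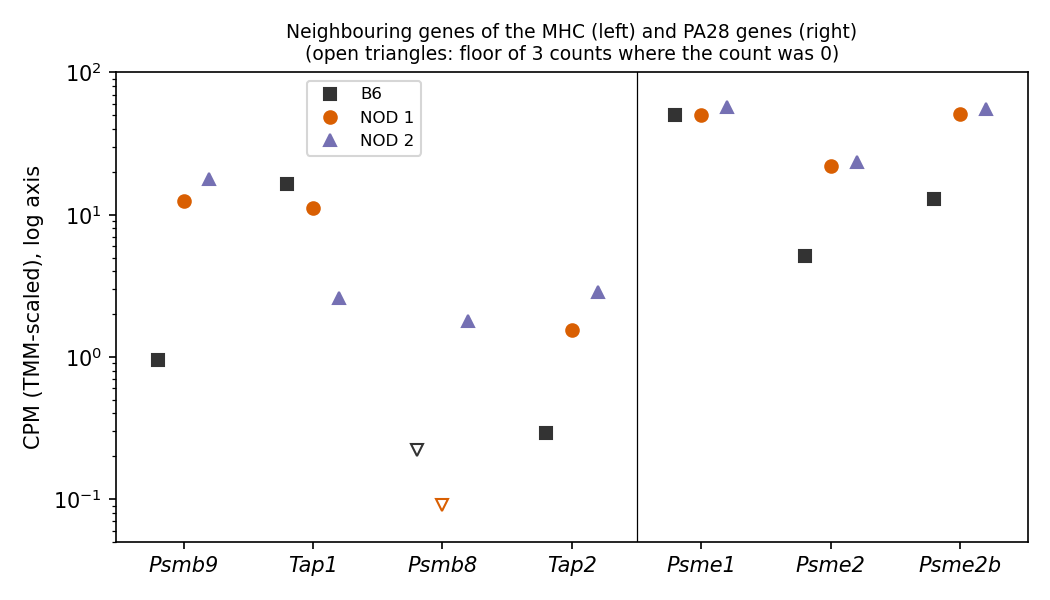
CPM (TMM-scaled, log axis) in B6 (squares), NOD 1 (circles) and NOD 2 (triangles) of the 4 neighbouring genes of the MHC in their order on chromosome 17, and of Psme1, Psme2 and Psme2b, with open triangles at the floor of 3 counts where the count was 0. Psmb9 is higher in both NOD libraries, Tap1 lies below B6 in both without a call, and Psmb8 has counts in NOD 2 alone.

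Other activators showed little. Psme3, which forms the nuclear PA28 cap, Psme4, which forms the PA200 cap, and the inhibitor Psmf1 had log2 fold changes of 0.35, 0.06 and 0.25 and were not called. Psme4 had 125, 151 and 109 CPM, so that B6 lay between the NOD libraries, and its value turned to −0.12 with total counts only.

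The 19S cap had 17 genes, of which 2 were called higher, a share close to the 10.3% of all genes. Psmc2, one of the 6 ATPases that unfold the substrate, had 424, 934 and 1211 CPM across B6, NOD 1 and NOD 2, with a fold change of 1.34 ± 0.26 on the log2 scale (adjusted p 0.0357). The ATPases had a median change of 0.833, and the lowest was Psmc5, with 703, 701 and 811 CPM and a change of 0.10 ± 0.21 (adjusted p 0.730) that turned to −0.08 with total counts only. Psmd12, a scaffold subunit of the lid, had 378, 813 and 938.5 CPM, a change of 1.21 ± 0.22 (adjusted p 0.0343). It was the 1 called of the 11 non-ATPase subunits, whose median was 0.466. Psmc2 and Psmd12 were each called in 4 of 7 other fits, and both calls were lost with upper-quartile factors, where Psmc2 had an adjusted p of 0.0535 and Psmd12 one at the threshold. The lowest of these was Psmd3, also of the lid, with 395, 233 and 274 CPM (−0.64 ± 0.23, adjusted p 0.112), where both NOD libraries were below B6. The ubiquitin receptor Psmd4 had the highest level per kilobase of the cap in B6 and NOD 1, at 638 and 818 CPM per kilobase.

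Of the 7 assembly chaperones, which help to build the particle and leave it, 3 were called higher, beside 10.3% of all genes. Psmd5, a chaperone of the 19S base, had 90.9, 311 and 441.5 CPM across B6, NOD 1 and NOD 2, with a fold change of 2.05 ± 0.33 on the log2 scale (adjusted p 0.0283). Psmd10, or gankyrin, another chaperone of the base, had 35.4, 109.8 and 169 CPM, a change of 1.98 ± 0.41 (adjusted p 0.0407). Psmg1, which pairs with Psmg2 to assemble the alpha ring, had 57.5, 185.5 and 217 CPM, a change of 1.81 ± 0.29 (adjusted p 0.0277). In all 3 genes both NOD libraries exceeded B6 by more than they differed from each other. The partner Psmg2 had a change of 0.59 ± 0.25 (adjusted p 0.146). Psmg4, which pairs with Psmg3, had 111, 72.4 and 51.5 CPM, with both NOD libraries below B6 (−0.84 ± 0.35, adjusted p 0.146). Psmd5 and Psmg1 were called in 5 of 7 other fits and Psmd10 in 3.

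The 2 core subunits known from single tissues had low counts. Psma8, the alpha subunit of male germ cells, had 7, 128 and 58 counts across B6, NOD 1 and NOD 2, with a pooled ratio of 5.40 (counting interval 2.57 to 13.6) and no call (adjusted p 0.224). The ratio was 7.54 on NOD 1 alone and 3.32 on NOD 2 alone. Psmb11, the beta subunit of the thymic cortex, had 0, 46 and 12 counts. It was at least 3.96-fold higher in the NOD mean than the B6 floor and was not called (adjusted p 0.147). This bound rests mainly on NOD 1, and it was 6.32 with NOD 2 left out and 1.60 with NOD 1 left out. Psmc3ip, the meiotic gene that shares the symbol, had 32.6, 85.3 and 73.5 CPM (1.28 ± 0.36, adjusted p 0.0671).

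The NOD libraries were not equal. Over the 49 members with counts in NOD 1, the ratio of NOD 2 to NOD 1 had a median of 1.14 and ran from 0.253 in Psmb11 to 1.54, and Psmb8 had counts in NOD 2 alone. Among the 45 members with at least 1000 counts in NOD 1, the lowest ratio was 0.711. NOD 2 was the higher of the pair in 38 of 50 members, against 49.7% of all genes. With NOD 1 left out, the median of the 50 was 0.756, and with NOD 2 left out it was 0.543.

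Other genes of the ubiquitin and proteasome pathway, which the symbol rule does not take in, were counted from a list of 29. Of these, 2 were called higher and 3 lower, against 10.3% and 7.39% of all genes tested. Uchl5, a deubiquitinase of the 19S cap, had 147, 374 and 322.5 CPM (1.24 ± 0.25, adjusted p 0.0392), and Zfand5, which binds and activates the particle, had 49.0, 248 and 187 CPM (2.15 ± 0.33, adjusted p 0.0257). Of the lower genes, the unfoldase Vcp had 663, 19.5 and 13.7 CPM across B6, NOD 1 and NOD 2 (−5.32 ± 0.31, adjusted p 0.0190). The shuttle Rad23b had 323, 75.4 and 54.5 CPM (−2.31 ± 0.30, adjusted p 0.0230), and the shuttle Ubqln2 had 127.5, 32.1 and 43.2 CPM (−1.76 ± 0.34, adjusted p 0.0372). Uchl5 was called in 3 and Ubqln2 in 4 of 7 other fits, and the other 3 genes in 5. The subunits Adrm1 and Sem1 and the 20S maturation factor Pomp had changes of 0.58, 0.21 and 0.37, and none of these 3 was called. The activators of proteasome genes went opposite ways without a call, with 72.9, 50.4 and 23.1 CPM for Nfe2l1 (−0.99 ± 0.54, adjusted p 0.232) and 47.1, 106.6 and 137 CPM for Nfe2l2 (1.37 ± 0.34, adjusted p 0.0548). The change of Nfe2l1 was −1.64 with NOD 1 left out and −0.53 with NOD 2 left out.

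Genes of peptide supply to MHC class I were counted from a list of 11, of which 3 were called higher and 1 lower, against the same 10.3% and 7.39% of all genes. The chaperones Pdia3 (195, 1725 and 1639 CPM) and Calr (371, 961 and 781 CPM) rose by 3.11 ± 0.22 and 1.23 ± 0.24 on the log2 scale, with adjusted p of 0.0190 and 0.0372. Calr was called in 4 of 7 other fits, and its call was lost under scaling by total counts alone (adjusted p 0.0559), which left 2 of the list called higher. Of the class I heavy chains, H2-D1 was higher in NOD (86.1, 365 and 326 CPM, 2.01 ± 0.26, adjusted p 0.0230) and H2-K1 was lower (478.5, 57.2 and 51.7 CPM, −3.13 ± 0.23, adjusted p 0.0191). Reads of both strains were counted against mm10, a genome of C57BL/6 origin, and the part of strain sequence in these counts was not tested.

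Genes of the interferon-gamma pathway were counted from a list of 13, of which 9 were tested and 2 were called higher, against 10.3% of all genes. The receptor chain Ifngr1 had 6, 1387 and 1040 counts across B6, NOD 1 and NOD 2, which gave a pooled ratio of 82.2 (counting interval 37.7 to 224, adjusted p 0.0203), and the feedback inhibitor Socs1 had 35.1, 125 and 125.5 CPM (1.84 ± 0.31, adjusted p 0.0299). Irf1 and Nlrc5, transcriptional activators of MHC class I and immunoproteasome genes, had low counts and were not called. Irf1 had 15, 3 and 33 counts, and Nlrc5 had 0, 0 and 15. Scaled for depth, Irf1 had 1.10, 0.0908 and 0.970 CPM, with both NOD libraries below B6 but NOD 2 close to it. Its log2 fold change was −0.167 with NOD 1 left out and −3.525 with NOD 2 left out, so that it rests mainly on NOD 1. The interferon-induced Isg15 and Ifit1 had at most 2 counts in any library, and Ifit3 and Gbp2 had 0 in all.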

How the data were processed

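The members and lists were chosen with earlier results of these data known. The authors sequenced 50 bases from one end of each fragment and used STAR for alignment to mm10 and HOMER for counting. The deposited values are raw counts per gene on exons, on both strands and with 1 transcript kept per gene, and a gene length is listed beside them. A version of STAR (2.2.0c) is given in the submitters' processing notes. The handling of reads that align to several places is not given in the sources used here. Totals were 12505685 (B6), 33891715 (NOD 1) and 36171013 (NOD 2) counts, and the counting floor was 3 counts.

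NOD (2 libraries) was compared with B6 (1 library) in R 4.3.3 with edgeR 4.0.16: filterByExpr with a minimum count of 10, TMM factors, trended dispersion, glmQLFit and glmQLFTest with a prior count of 0.125, and Benjamini-Hochberg adjustment over 14456 genes. A call needed an adjusted p under 0.05 and 2-fold. There was 1 residual degree of freedom beside 3.78 prior ones. A standard error is the size of the fitted change over the root of its F statistic. Ratios within a library used counts per kilobase of listed length, with exact 95% intervals (Clopper-Pearson for 2 genes, Poisson against a median). DESeq2 1.42.0 and limma 3.58.1 gave alternative tests, as did other scalings, no count filter and a single dispersion (chosen after the data were seen). The words of 50 bases were counted in GENCODE M21 transcripts.

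Named with their values were Psmb5 to Psmb10, Psme1 and Psme2, every called member, the highest and lowest fold change of each class of 3 or more, every called gene of the related lists, and Adrm1, Sem1, Pomp, Nfe2l1, Tap1, Tap2, Irf1 and Nlrc5. The results for 2 genes are not reported here. Other members, markers, Nfe2l2 and interferon-induced genes were named after their values were seen. The counting command names 2 further libraries, which were not used here.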

Additional observations from a re-analysis of the deposited data

How the results depend on the processing

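No paired analysis was possible because B6 has 1 library. The 12 members called higher became 10 with DESeq2 size factors, 7 with total counts only, 5 with upper-quartile factors, 10 with 1 dispersion for all genes (chosen after the data were seen) and 12 with DESeq2, and 0 without a filter on low counts and 0 with limma-voom. The lowest adjusted p of any member was 0.0656 and 0.0702 in these fits. No setting called a member lower. Over all genes tested, 1483 were called higher and 1069 lower in the main fit, out of 14456. These became 1481 and 1196 with DESeq2 size factors, 1037 and 1132 with total counts only and 1016 and 701 with upper-quartile factors. With 1 dispersion they became 1281 and 1418, and with DESeq2 2346 and 1864. Without a filter they were 0 and 0, and with limma-voom 0 and 0 (5568 and 3924 genes at an unadjusted p under 0.05). Of the 29 other pathway genes, those called higher went from 2 to 1 with upper-quartile factors, 1 with total counts, 5 with 1 dispersion and 5 with DESeq2. Those called lower went from 3 to 2, 3, 3 and 4 in the same settings. These stand beside the counts over all genes just given. Both were 0 without a filter or with limma-voom. In these last settings the calls in the lists of peptide supply and interferon-gamma were also 0. With total counts, those called higher for peptide supply fell from 3 to 2, Calr being lost. The cause of these differences was not tested.

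With total counts only, the median of all genes moved from 0.262 to 0.072, and the medians moved to 0.508 for all members, 0.544 for the constitutive 20S, 0.646 for the ATPases, 0.277 for the non-ATPase subunits and 0.404 for the chaperones. Psmc5 (−0.084), Psme1 (−0.089) and Psme4 (−0.124) changed sign. Leaving out a NOD library gives values with no test. The medians then ranged from 0.543 to 0.756 for all members, 0.004 to 2.2 for the 5 genes, 0.624 to 0.843 for the constitutive 20S, 0.704 to 0.905 for the ATPases, 0.366 to 0.580 for the non-ATPase subunits and 0.483 to 0.709 for the chaperones.

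Ratios within a library depend on the length used. From counts not divided by length, Psmb9 was 0.738% of Psmb6 in NOD 1 and 0.986% in NOD 2, Psmb10 was 39.7%, 10.3% and 6.35% of Psmb7 in B6, NOD 1 and NOD 2, Psme2 was 2.95% and 2.97% of the 20S median in NOD 1 and NOD 2, and Psmb8 was 1.11% of Psmb5 in NOD 2. With the number of unique 50-base words in place of length, Psmb9 was 0.0705%, 0.472% and 0.631%, Psmb10 was 25.1%, 6.52% and 4.02%, Psme2 was 2.95%, 9.85% and 9.81%, Psme1 was 9.07% and 9.73% in NOD 1 and NOD 2, and Psmb8 was 0.274% in NOD 2. Psmb9 and Psme2 stayed higher and Psmb10 lower in both NOD libraries under each length. The depth of B6 limits Psmb8, Psmb9, Psma8 and Psmb11, which had 0 to 13 counts there.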

Other observations

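A ubiquitin gene and the enzymes that activate ubiquitin were measured beside the proteasome genes, and none of those named here was called. Ubb, which encodes ubiquitin as a chain of repeats, had 435, 542 and 704 CPM across B6, NOD 1 and NOD 2 (log2 fold change 0.52 ± 0.26, adjusted p 0.198 in edgeR). The activating enzymes Uba1 and Uba6 had changes of −0.03 ± 0.38 and 1.08 ± 0.41. Ufd1 and Nploc4, the partners of Vcp, had 187, 364 and 473 CPM and 187, 138 and 119 CPM, without the large fall of Vcp, and were not called (adjusted p 0.0507 and 0.187). These genes were picked from the list of 29 after their values were seen.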
